A study of Mus musculus with 12 samples.

Results

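The genes described are 33 members of the amino acid response that centres on the transcription factor ATF4, found by their symbols among the 26962 genes of the deposited table. They comprise 10 factors and stress regulators, 7 amino acid transporters, 6 enzymes of serine and one-carbon metabolism, 4 other enzymes of amino acid synthesis and 6 tRNA synthetases. RNA came from CD8 T cells sorted for binding of an Rpl18 tetramer, which stains T cells whose receptor recognizes an Rpl18 peptide. The mice had received MC38, a mouse colon carcinoma line, 10 days earlier. The 12 libraries form 4 groups of 3: tumor-draining lymph node (TDLN) and tumor, each from wild-type (WT) mice and from mice labelled as knockout (KO) for TrIP in CD8 cells alone. Pik3ip1 encodes TrIP, an inhibitor of PI3K in the cell membrane. Every mouse in all groups carried the tumor, so neither tissue has an unchallenged control, and neither the driver of the deletion nor any pooling of mice is given in the sources used here. WT libraries are numbered 1, 3 and 4 and KO libraries 1, 2 and 3, and values below follow that order.

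When amino acids run short or the endoplasmic reticulum is stressed, kinases phosphorylate the translation factor eIF2alpha, which lowers protein synthesis in general but favours translation of Atf4 mRNA. The ATF4 protein, paired with C/EBP family members, binds composite DNA elements in genes for amino acid import, amino acid synthesis and tRNA charging. It is also known for inducing its own partners and brakes, among them CHOP and TRIB3. Activated CD8 T cells draw heavily on these transporters and on serine synthesis as they divide. RNA levels do not report how much ATF4 protein was made.

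Values are normalized counts, and differences are on the scale of log2(normalized count + 24.9). A fold is taken from the same scale and understates the change of genes with low values. A gene is said to have risen or fallen, or to have been called, where limma's adjusted p passed 0.05 over the 16065 genes tested. Reads assigned to genes were estimated at 18.3 M to 36.9 M in a library. Pik3ip1 was not lower in the TDLN libraries labelled KO, at 854 to 1573 against 607 to 1095 in WT (log2 0.42, SE 0.35, limma adjusted p = 1), and in tumor they stood at 55.5 to 173 against 119 to 179 (log2 -0.44, SE 0.35, adjusted p = 0.814). A whole-gene value does not see a deletion that leaves most of the transcript, but whether that applies here was not tested. These values do not themselves show the deletion, so KO is used only as the label of those libraries. WT tumor replicate 3 stood apart from the other tumor libraries on the principal component after the one that parts the tissues (-77.4 against -5 to 23.7). The CD8 T-cell markers held 0.376% to 0.659% of all values and none of the 10 was at 0 in any group. In bulk RNA, fewer cells of a type and less RNA per cell cannot be told apart.

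Comparing tumor with TDLN asks how these tetramer-binding cells differ between the tumor and the node that drains it. In tumor, Atf4, the factors Cebpb, Ddit3 and Nupr1 and most amino acid transporters were higher, whereas the serine enzyme Phgdh and the seryl-tRNA synthetase Sars were lower. Of 32 members tested in WT, 14 rose, 5 fell and 13 were not called, against a background of 15.9% of all genes called higher and 10.9% called lower. In KO 14 rose, 2 fell and 16 were not called, with 18.1% and 12.6% of all genes called. The cysteine-making enzyme Cth was under the filter on low values and was not tested. Both genotypes shared 13 risen members and 2 fallen ones, where 13.0% and 7.29% of all genes were called higher and lower in both. The median log2 difference of the tested members was 0.47 in WT and 0.60 in KO, beside 0.05 for all genes in each. Without WT tumor replicate 1 the WT median was 0.27, and with a mean of at least 5 CPM required it was 0.06.

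The libraries of the 2 tissues did not overlap for 15 members above and 8 below in WT tumor, against 22.8% and 17.0% of all genes, and for 17 above and 3 below in KO tumor, against 27.5% and 22.7%. Across the 32 members the WT and KO tissue differences had the same sign for 28, with Pearson's r = 0.95 and Spearman's rho = 0.95, which describes genes within these libraries and counts no replicates. The typical gene lay slightly above 0, and rescaling to a common column total moved the median of all genes from 0.05 to -0.11 in WT and -0.02 in KO. Under quantile normalization it was -0.09 and -0.12. Calls over all genes in WT then went from 2560 higher and 1752 lower to 2110 and 2527 with the common total, and to 2018 and 2285 with quantile normalization. Among the members the WT split was 13 higher and 7 lower, and 11 higher and 5 lower, in those scalings, and in KO it was 13 and 2, and 14 and 2. In KO the calls over all genes went from 2902 higher and 2017 lower to 2644 and 2403, and to 2396 and 2870.

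**Figure D1:**
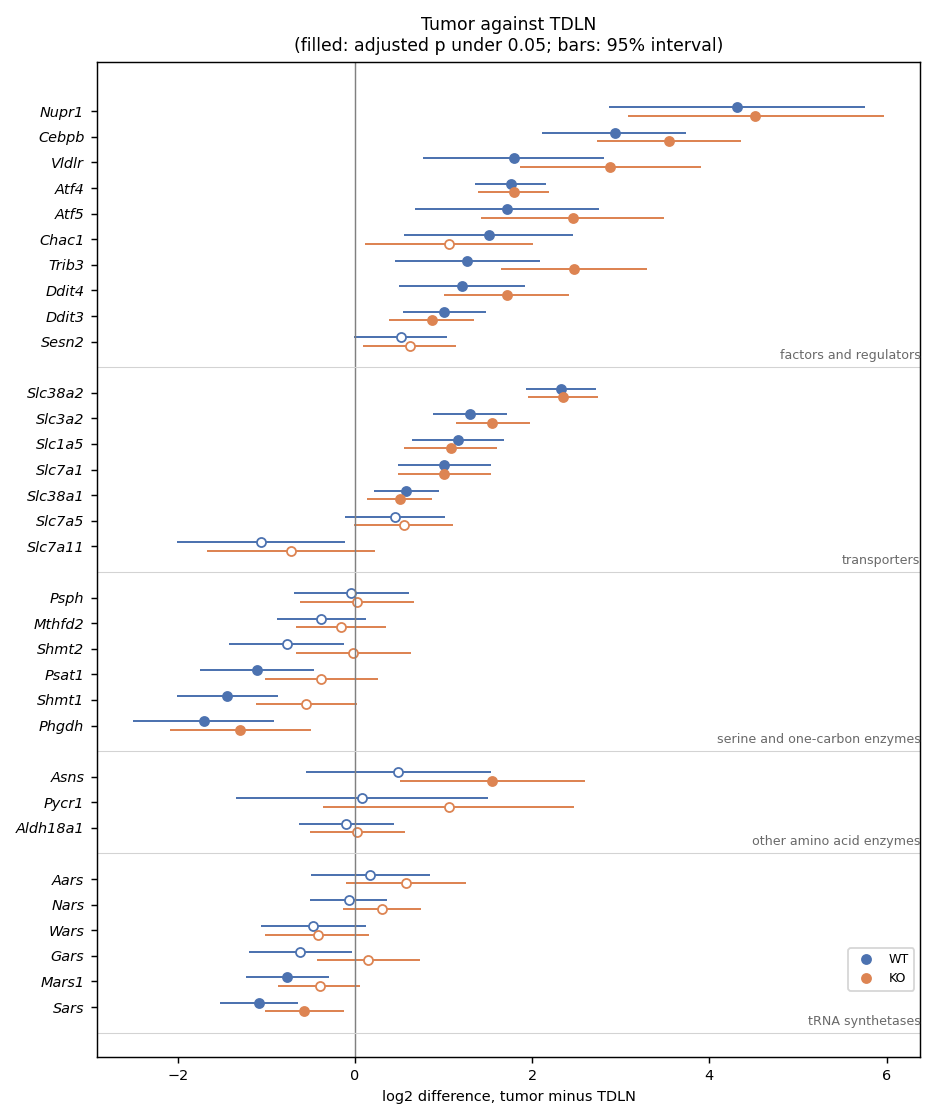
Log2 difference of tumor minus TDLN for the 32 tested members, by role, in WT (blue) and KO (orange); points are estimates, bars 95% intervals, and filled points have a limma adjusted p under 0.05. The factors lie to the right of 0 and the transporters do so except Slc7a11, while the serine and one-carbon enzymes lie near or to the left of 0.

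Among the factors and regulators, 9 of 10 rose in WT and 8 of 10 in KO, beside 15.9% and 18.1% of all genes called higher. Atf4 itself (ENSMUSG00000042406) stood at 1207, 1547 and 1542 in WT TDLN, 1244, 1601 and 1415 in KO TDLN, 4383, 5241 and 5094 in WT tumor and 4185, 6034 and 4745 in KO tumor. All 6 tumor libraries lay far above all 6 TDLN libraries. The gene was 3.4-fold higher in tumor in WT (log2 1.76, SE 0.18, adjusted p = 3.53e-05), and KO gave 3.45-fold (log2 1.79, SE 0.18, adjusted p = 2.36e-05). Cebpb (ENSMUSG00000056501), which encodes C/EBP beta, a dimer partner of ATF4, stood at 59.6, 78 and 114 in WT TDLN, 53.4, 84.3 and 69.1 in KO TDLN, 1370.5, 485 and 722 in WT tumor and 892, 1623 and 818 in KO tumor. Its tumor libraries spread more widely than those of Atf4, but none overlapped TDLN. The difference was 7.61-fold in WT (log2 2.93, SE 0.37, adjusted p = 0.000172), and KO gave 11.7-fold (log2 3.54, SE 0.37, adjusted p = 3.25e-05).

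Nupr1 (ENSMUSG00000030717), a small stress-induced nuclear protein, stood at 66.7, 0 and 32.4 in WT TDLN, 13.9, 49.3 and 0 in KO TDLN, 1422, 566 and 1172 in WT tumor and 795, 389.5 and 2527 in KO tumor. One TDLN library of each genotype held none, and the highest KO tumor library held 6.49 times the lowest. Nupr1 rose in tumor in WT (log2 4.31, SE 0.66, adjusted p = 0.000643) and in KO (log2 4.52, SE 0.66, adjusted p = 0.000398). Ddit3, which encodes the stress factor CHOP, stood at 401, 592 and 379.9 in WT TDLN, 461, 385 and 505 in KO TDLN, 1084, 945 and 783 in WT tumor and 770, 841 and 903 in KO tumor. It was 2.01-fold higher in WT tumor (log2 1.01, SE 0.21, adjusted p = 0.00448) and 1.82-fold higher in KO tumor (log2 0.87, SE 0.21, adjusted p = 0.00942), with no overlap between tissues. Ddit4, whose product REDD1 restrains the growth kinase mTORC1, was 2.32-fold higher in WT (log2 1.21, SE 0.32, adjusted p = 0.0154), and KO gave 3.28-fold (log2 1.72, SE 0.32, adjusted p = 0.00203). The WT call of Ddit4 ended without WT tumor replicate 1 or WT TDLN replicate 4 (highest adjusted p = 0.0718).

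Another set of regulators was low or near 0 in TDLN. Atf5, a factor related to ATF4, stood at 21.2, 42.8 and 14 in WT TDLN, 13.2, 8.76 and 10.6 in KO TDLN, 208, 38 and 268 in WT tumor and 174, 159 and 180.3 in KO tumor. Its level in WT tumor replicate 3 fell within the TDLN range, and it was 3.28-fold higher in WT (log2 1.72, SE 0.47, adjusted p = 0.018), and KO gave 5.48-fold (log2 2.46, SE 0.47, adjusted p = 0.00233). Trib3, a pseudokinase that restrains ATF4, stood at 1.01, 10.6 and 17.5 in WT TDLN, 0.774, 2.19 and 0 in KO TDLN, 124, 35.1 and 36 in WT tumor and 122, 90.1 and 149.7 in KO tumor. It rose in WT (log2 1.27, SE 0.37, adjusted p = 0.0255) and in KO (log2 2.47, SE 0.37, adjusted p = 0.000505), where the tumor libraries held 313 reads in all and the TDLN libraries 3. Vldlr, a lipoprotein receptor, stood at 1.01, 0 and 0 in WT TDLN, 0, 1.1 and 0.96 in KO TDLN, 194, 32.3 and 28.6 in WT tumor and 202, 197 and 108 in KO tumor. It rose in WT (log2 1.79, SE 0.47, adjusted p = 0.0136; 260 reads in tumor and 1 in TDLN) and in KO (log2 2.88, SE 0.47, adjusted p = 0.00079; 454 and 2 reads). Chac1, which degrades glutathione, stood at 0, 0 and 0 in WT TDLN, 6.19, 17.5 and 0 in KO TDLN, 123, 20.1 and 28.6 in WT tumor and 31.9, 30.5 and 69.3 in KO tumor. With no read in WT TDLN, its WT tumor mean was at least 21.2-fold higher, against a floor of 3 reads per library, which is 2.70 normalized counts and covers counting error only. Without WT tumor replicate 1 that bound was 9.02. Chac1 was called in WT (log2 1.51, SE 0.43, adjusted p = 0.0224) and not in KO (log2 1.06, SE 0.43, adjusted p = 0.0816), where 2 TDLN libraries held some. The difference between these tissue effects was -0.45 (SE 0.61, adjusted p = 1). Sesn2, a leucine sensor upstream of mTORC1, lay above TDLN in every tumor library without a call, at log2 0.52 in WT (adjusted p = 0.128) and 0.62 in KO (adjusted p = 0.0674). In WT, the calls of Atf5, Trib3, Chac1 and Vldlr ended with only the WT groups in the fit. Those of Trib3, Chac1 and Vldlr also ended with quantile normalization and with a pseudocount of 4 CPM. With a mean of at least 5 CPM required, Atf5, Trib3, Chac1 and Vldlr fell under the filter. Trib3 lost its WT call to quantile normalization with an adjusted p of 0.141, and to leaving out tumor replicate 1 or TDLN replicate 1 or 3 of WT (highest adjusted p = 0.0922). For Atf5 it ended without WT tumor replicate 1 or 4 or WT TDLN replicate 1 or 4 (highest adjusted p = 0.0756), and for Chac1 without any one of the WT TDLN libraries (highest adjusted p = 0.0612). Without WT tumor replicate 1 or KO tumor replicate 3, Chac1 fell under the filter and was not tested.

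Markers of macrophages and monocytes, taken as a sum, were also higher in tumor than in TDLN. The 19 genes measured together took 0.00831% to 0.0146% of a library in WT TDLN and 0.00408% to 0.0134% in KO TDLN. In tumor they took 0.0641% to 0.15% in WT and 0.121% to 0.29% in KO. Of the 19, 13 in WT TDLN and 14 in KO TDLN were under 1 CPM in every library. The TDLN share includes Ccr2, which averaged 2044 normalized counts in WT TDLN and 2025 in KO TDLN and was not called between tissues. Of the 19, 17 were higher in tumor in WT and 18 in KO, and C1qc, Cd14 and Ms4a7 were at 0 in every TDLN library of both genotypes. By library, the summed share in WT tumor was 0.15%, 0.147% and 0.0641%. The median over the factors, each gene centred on its mean, was 1.41, 0.10 and 0.37 in these libraries. In KO tumor the share was 0.134%, 0.29% and 0.121%, and the median over the factors was 1.11, 1.05 and 1.16. Replicate 2 of that group had its highest Cebpb and its lowest Nupr1. Fibroblast and endothelial markers summed to at most 0.00187% in TDLN and to 0.0193% to 0.131% in tumor. B-cell markers went the other way, with 0.0218% to 0.043% in TDLN and 0.00279% to 0.00963% in tumor. Dendritic-cell markers summed to at most 0.000838% in TDLN and 0.00454% in tumor. Markers of MC38 or other epithelial cells summed to at most 0.000481% in any library, with Krt8 at 0 in all TDLN libraries and Krt18 at 0 in KO tumor. The part of such cells in the levels of Cebpb, Nupr1, Vldlr and the other members was not tested.

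**Figure D2:**
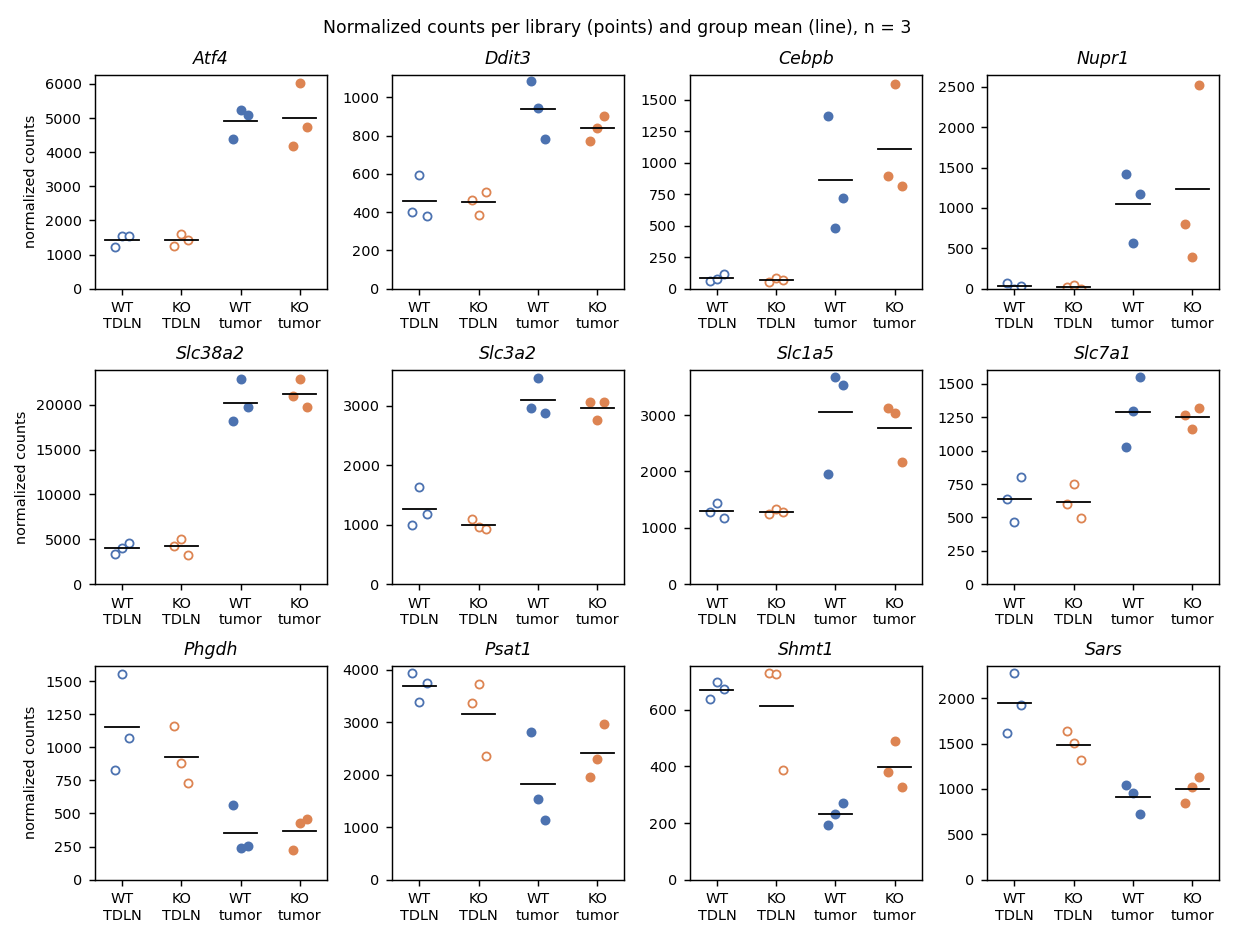
Normalized counts of 12 members in each library (points; open for TDLN, filled for tumor; WT blue, KO orange) with the mean of each group (line, n = 3); each panel starts at 0. Atf4, Cebpb, Nupr1 and the transporters stand above TDLN in all tumor libraries, and Phgdh and Sars stand below.

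ATF4 is known to act through a composite C/EBP-ATF element in promoters, and the promoters of the members were searched for its core. The core was taken as TGATGNAA, which on the opposite strand reads TTNCATCA, in RefSeq windows (GRCm38.p6) from 250 bases before to 50 after each gene's start. The build behind the deposited table is not settled, so these coordinates belong to RefSeq alone. Of the 33 members, 27 were matched by symbol, and Slc38a1, Slc1a5, Slc7a5, Cth, Nars and Wars were not. The core was present for 9 of the 27 (33.3%), against 1219 of the 27025 genes with RefSeq windows (4.51%). By promoter it was present in 9 of 31 for the members (29.0%) against 1304 of 32851 (3.97%). The members were listed as ATF4 targets and amino acid genes, so the list itself favours the core. The higher share is therefore no result about these libraries. The 9 were Nupr1, Trib3, Chac1 and Vldlr of the factors, Slc7a11 of the transporters, Asns and Pycr1 of the other enzymes, and Aars and Gars of the synthetases. None of the 6 serine and one-carbon enzymes had it. A match is a description of letters and not of binding, and its absence says only that the letters are not in this window.

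The windows below are shown because they hold the core in members that rose in tumor and in others that did not. Each runs 5′ to 3′ on the strand of its gene, ends before the transcription start, and has the core in capitals.
Nupr1: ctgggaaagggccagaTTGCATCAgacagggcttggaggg
Vldlr: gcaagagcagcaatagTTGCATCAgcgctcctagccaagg
Chac1: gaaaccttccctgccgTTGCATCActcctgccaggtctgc
Asns: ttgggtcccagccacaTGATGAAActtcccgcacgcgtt
Slc7a11: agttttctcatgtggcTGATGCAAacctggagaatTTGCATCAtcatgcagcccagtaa
Pycr1: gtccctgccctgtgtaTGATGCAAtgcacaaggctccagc
Aars: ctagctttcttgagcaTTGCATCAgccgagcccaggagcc
Gars: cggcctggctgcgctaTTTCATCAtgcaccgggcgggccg
These lie at chr7:126625557-126625596, minus strand (Nupr1), chr19:27216804-27216843, plus strand (Vldlr), chr2:119351033-119351072, plus strand (Chac1) and chr6:7693210-7693248, minus strand (Asns). The others lie at chr3:50443637-50443695, minus strand (Slc7a11), chr11:120643828-120643867, minus strand (Pycr1), chr8:111033714-111033753, plus strand (Aars) and chr6:55037955-55037994, plus strand (Gars). The core begins 110 bases before the start in Nupr1, 200 in Vldlr, 193 in Chac1 and 23 in Asns. Slc7a11 has 2 copies facing each other, beginning 66 and 47 bases before the start. In Trib3 the core lies 15 bases into the transcript, and Aars has another copy 10 bases into its transcript, and neither is shown. Of the 9 genes with the core, Nupr1, Trib3 and Vldlr rose in both genotypes, Chac1 was called in WT, Asns in KO, and Slc7a11, Pycr1, Aars and Gars in neither. Atf4, Cebpb, Slc38a2 and Slc3a2 rose without the core in their windows.

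Of the amino acid transporters, 5 of 7 rose in each genotype, beside 15.9% of all genes called higher in WT and 18.1% in KO. Slc38a2 (ENSMUSG00000022462), which encodes the sodium-coupled neutral amino acid transporter SNAT2, stood at 3407, 4073 and 4592 in WT TDLN, 4227, 5079.9 and 3295 in KO TDLN, 18182, 22849.7 and 19727 in WT tumor and 21020.2, 22891 and 19719 in KO tumor. Every tumor library stood far above every TDLN library. The difference was 5.02-fold in WT (log2 2.33, SE 0.18, adjusted p = 3.14e-06), and KO gave 5.09-fold (log2 2.35, SE 0.18, adjusted p = 2.44e-06). Slc3a2 (ENSMUSG00000010095), the CD98 heavy chain that carries Slc7a5 and Slc7a11 to the membrane, stood at 990.1, 1641 and 1175 in WT TDLN, 1089, 965 and 926 in KO TDLN, 2964, 3474 and 2875 in WT tumor and 3066, 2761 and 3059.7 in KO tumor. No tumor library overlapped TDLN, and the fold was 2.46 in WT (log2 1.30, SE 0.19, adjusted p = 0.00041) and 2.94 in KO (log2 1.55, SE 0.19, adjusted p = 9.63e-05).

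Slc1a5, which encodes the glutamine transporter ASCT2, stood at 1281, 1442 and 1179 in WT TDLN, 1245, 1326 and 1271 in KO TDLN, 1946, 3673 and 3539 in WT tumor and 3125, 3039 and 2168 in KO tumor. It was 2.24-fold higher in WT tumor (log2 1.16, SE 0.24, adjusted p = 0.00351) and 2.12-fold higher in KO tumor (log2 1.08, SE 0.24, adjusted p = 0.00476). Slc7a1, the arginine and lysine transporter CAT1, was 2.01-fold higher in WT (log2 1.01, SE 0.23, adjusted p = 0.00788), and KO gave 2.02-fold (log2 1.01, SE 0.23, adjusted p = 0.00693). Slc38a1, a close relative of Slc38a2, differed least among the called transporters, at 1.5-fold in WT (log2 0.58, SE 0.17, adjusted p = 0.0209), and KO gave 1.42-fold (log2 0.51, SE 0.17, adjusted p = 0.0357). Its call held in 17 of 22 alternatives in WT and in 14 of 22 in KO, and ended with the common column total in both. The call also ended in WT without TDLN replicate 3 or 4 or tumor replicate 3 (highest adjusted p = 0.0611), and in KO without WT TDLN replicate 4 or any one KO library except tumor replicate 3 (highest adjusted p = 0.13). The members Slc7a5 and Slc7a11, light chains that pair with Slc3a2, were not called. Slc7a5, the leucine transporter LAT1, had a log2 difference of 0.45 in WT (adjusted p = 0.208) and 0.55 in KO (adjusted p = 0.118). Its tumor libraries did not overlap TDLN, at 304 to 442 against 196 to 290 in WT and 353 to 463 against 189 to 316.5 in KO. Slc7a11, the cystine transporter xCT, stood at 252, 336 and 269.7 in WT TDLN, 326, 221 and 260.2 in KO TDLN, 227, 146 and 49.8 in WT tumor and 97.6, 120.5 and 287 in KO tumor. All WT tumor libraries lay below WT TDLN, with a log2 difference of -1.06 (SE 0.43, adjusted p = 0.088), while KO tumor replicate 3 lay within the TDLN range (-0.72, adjusted p = 0.227). Without WT tumor replicate 1, Slc7a11 was called lower in WT.

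Enzymes of serine and one-carbon metabolism had no call in the direction of Atf4: none of the 6 was called higher in either genotype, 3 fell in WT and 1 fell in KO. With 15.9% and 18.1% of all genes called higher, none of 6 is near the background, as is 1 of 6 lower in KO beside 12.6%, and 3 of 6 lower in WT stands beside 10.9%. Phgdh (ENSMUSG00000053398), which takes a glycolytic intermediate into serine synthesis, stood at 830.5, 1550.4 and 1072 in WT TDLN, 1161, 883 and 734 in KO TDLN, 563, 236 and 254 in WT tumor and 224, 428 and 462 in KO tumor. Every tumor library lay below every TDLN library. The WT fold was 3.26, lower in tumor (log2 -1.70, SE 0.36, adjusted p = 0.00465). In KO it was 2.46, also lower in tumor (log2 -1.30, SE 0.36, adjusted p = 0.0177), a call that in KO ended without KO TDLN replicate 1 or KO tumor replicate 1 (highest adjusted p = 0.0792). Psat1 (ENSMUSG00000024640), the next enzyme of the pathway, stood at 3939, 3388 and 3742 in WT TDLN, 3370.1, 3729.8 and 2361 in KO TDLN, 2807, 1537 and 1130.2 in WT tumor and 1950, 2307 and 2974 in KO tumor. It fell in WT (log2 -1.11, SE 0.29, adjusted p = 0.0147), a call that ended without WT tumor replicate 4 (adjusted p = 0.0614). The KO groups overlapped (log2 -0.38, SE 0.29, adjusted p = 0.344).

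Shmt1 (ENSMUSG00000020534), the cytosolic enzyme that moves a carbon unit from serine to folate, stood at 636, 697 and 673 in WT TDLN, 729, 726 and 386 in KO TDLN, 194, 233 and 269.5 in WT tumor and 382, 488 and 329 in KO tumor. The WT tissues were well apart, and WT tumor was 2.72-fold lower (log2 -1.44, SE 0.26, adjusted p = 0.00173). The KO tissues overlapped at KO TDLN replicate 3 (log2 -0.55, SE 0.26, adjusted p = 0.123), and without that library the KO difference was called (adjusted p = 0.0237). Shmt2 and Mthfd2 act in the mitochondrial branch of the same pathway, and Psph completes serine synthesis. Shmt2 had a log2 difference of -0.77 in WT (adjusted p = 0.0706) and -0.02 in KO (adjusted p = 0.969). Mthfd2 stood at -0.38 (adjusted p = 0.235) and -0.16 (adjusted p = 0.634). Psph differed by -0.04 (95% interval -0.68 to 0.60) and 0.02 (-0.61 to 0.66). In WT, tumor libraries lay below TDLN without overlap for 5 of the 6 enzymes, all but Psph, beside 17.0% of all genes. In KO that held for 1 of the 6, Phgdh, beside 22.7%.

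Genes of dividing cells were also lower in tumor. The sum of the 17 cycling-cell markers took 0.301% to 0.432% of a TDLN library and 0.0621% to 0.178% of a tumor library, with 17 of 17 called lower in WT and 12 of 17 in KO. Within groups the serine and one-carbon enzymes followed this share in some libraries and not in others. KO TDLN replicate 3 had the lowest share of its group, 0.301%, and the lowest value for all 6 of these enzymes, but also for all 6 synthetases. KO TDLN replicate 1 had the highest share, 0.431%, and the highest value for 4 of the 6 enzymes. In WT tumor, replicate 1 had the highest share, 0.178%, and the highest value for 5 of the 6. Replicate 3 of that group had the lowest share, 0.0621%, and the lowest value for 3. In WT TDLN, replicate 3 had the lowest share, 0.373%, yet the highest value for 3 of the 6, and replicate 4, with the highest share, 0.432%, was highest for 2. In KO tumor, replicate 1 had the lowest share, 0.119%, and the lowest value for 4 of the 6. There, replicate 2 had the highest share, 0.165%, while replicate 3, at 0.143%, was highest for 4 of the 6. The part of cell division in these levels was not tested.

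Among the other enzymes of amino acid synthesis, Asns, which makes asparagine, stood at 236, 292 and 329 in WT TDLN, 204, 347 and 57.6 in KO TDLN, 563, 288 and 418 in WT tumor and 328, 622 and 754 in KO tumor. It was not called in WT (log2 0.49, SE 0.48, adjusted p = 0.473) and rose 2.94-fold in KO (log2 1.55, SE 0.48, adjusted p = 0.0272). The KO groups overlapped, at 328 in the lowest tumor library and 347 in the highest TDLN library, and the call ended without KO TDLN replicate 3, whose 57.6 was the lowest value, or without KO TDLN replicate 1 or KO tumor replicate 2 or 3 (highest adjusted p = 0.0943). The difference between the tissue effects was 1.06 (SE 0.67, adjusted p = 1). Aldh18a1 and Pycr1 open and close proline synthesis. Aldh18a1 differed by -0.10 in WT (-0.62 to 0.43) and 0.02 in KO (-0.50 to 0.55). Pycr1 was the most uneven member within tumor, at 43.3, 1.43 and 109 in WT and 1.82, 93.9 and 128 in KO, and was not called (adjusted p = 0.943 and 0.235). Cth, which releases cysteine from cystathionine, stood at 0, 0 and 0.876 in WT TDLN, 0, 0 and 0 in KO TDLN, 50.5, 13.6 and 67.8 in WT tumor and 23.7, 52 and 33.3 in KO tumor. Every tumor library held Cth reads, and 1 of the 6 TDLN libraries held a single read. Its KO tumor mean was at least 12.8-fold higher than the floor of 3 reads per library, and in WT the tumor libraries held 132 reads in all. With no filter on low values it was called higher in both genotypes.

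Among the tRNA synthetases, which join an amino acid to its tRNA, none of 6 rose, 2 fell in WT and 1 fell in KO. Of all genes 15.9% and 18.1% were called higher and 10.9% and 12.6% lower in WT and KO, so with 6 genes the absence of a rise and the single KO call lie near the background. Sars (ENSMUSG00000068739), the serine enzyme, stood at 1622, 2283 and 1924 in WT TDLN, 1642, 1511 and 1318 in KO TDLN, 1044, 951 and 728 in WT tumor and 844, 1026 and 1133 in KO tumor. Tumor libraries lay below TDLN in both genotypes. Against TDLN, Sars was 2.11-fold lower in tumor in WT (log2 -1.08, SE 0.20, adjusted p = 0.00202). The KO fold was 1.48 in the same direction (log2 -0.57, SE 0.20, adjusted p = 0.0463), and the call held in 13 of 22 alternatives, ending among others without WT TDLN replicate 1 or 4 or any one KO library except tumor replicate 3 (highest adjusted p = 0.164). Mars1 (ENSMUSG00000040354), the methionine enzyme, stood at 700.5, 799.6 and 990.3 in WT TDLN, 871, 816 and 605 in KO TDLN, 534, 446 and 442 in WT tumor and 668, 524 and 513 in KO tumor. It fell in WT (log2 -0.77, SE 0.21, adjusted p = 0.017), which ended without WT TDLN replicate 4 or WT tumor replicate 4 (highest adjusted p = 0.0794), and was not called in KO (log2 -0.40, SE 0.21, adjusted p = 0.16). The others were not called: in WT they ran from -0.62 for Gars (glycine) to 0.17 for Aars (alanine), and in KO from -0.42 for Wars (tryptophan) to 0.58 for Aars, with Nars (asparagine) at -0.07 and 0.31.

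**Figure D3:**
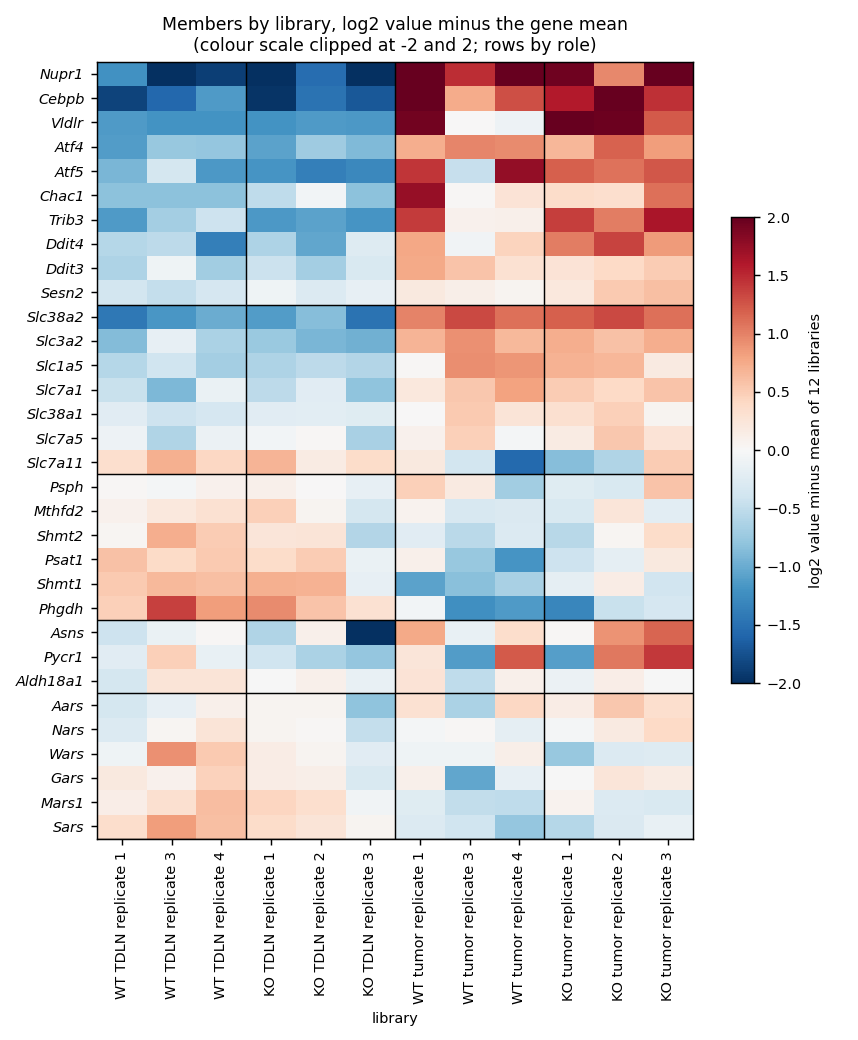
Log2 value of each tested member in each library minus its mean over the 12 libraries, rows by role and columns by group; red is above the mean, blue below, and colours are clipped at -2 and 2. The median over the factors lies at -1.11 to -0.72 in TDLN, at 1.41, 0.10 and 0.37 in WT tumor and at 1.05 to 1.16 in KO tumor.

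Within the WT tumor group the members did not move as one. Over the 10 factors, the median of values centred on each gene's mean was 1.41 in replicate 1, 0.10 in replicate 3 and 0.37 in replicate 4, and replicate 1 was highest for 8 of the 10. Atf4 itself was lowest in replicate 1. The transporters had medians of 0.19, 0.54 and 0.64, lowest in replicate 1. In KO tumor the factors stood at 1.11, 1.05 and 1.16 and the transporters at 0.51, 0.54 and 0.50. KO TDLN replicate 3 was the lowest of its group for 23 of 32 members.

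The comparison of genotypes asks whether libraries labelled KO and WT differ within a tissue. In tumor, limma called 0 of 32 members, and 0 of 16065 genes (0.0%). At an unadjusted p under 0.05 there were 3 members, beside 6.25% of all genes. Of the 32, 25 lay above 0 in KO, beside 8336 of all 16065 genes, with a median of 0.19 (all genes 0.02). With a library left out, that median ran from 0.12 without WT tumor replicate 4 to 0.33 without WT tumor replicate 1, and with array weights it was 0.11. The smallest p among members higher in KO belonged to Shmt1 (0.72, SE 0.26, limma adjusted p = 0.771), Vldlr (1.11, SE 0.47, adjusted p = 0.775) and Trib3 (0.81, SE 0.37, adjusted p = 0.775). Shmt1 was at 382, 488 and 329 in KO tumor against 194, 233 and 269.5 in WT tumor, which did not overlap. Among those lower in KO it belonged to Wars (-0.41, adjusted p = 0.81), Ddit3 (-0.15, adjusted p = 0.892) and Slc1a5 (-0.10, adjusted p = 0.94), and Slc1a5 changed sign with array weights (0.19). Groups did not overlap for Ddit4, Shmt1 and Sesn2 above and Wars below, 4 members beside 7.48% of all genes. Macrophage markers lay above 0 in KO tumor for 18 of 19, with a median of 0.64, cycling markers for 16 of 17, with a median of 0.58, and CD8 markers below 0 for 10 of 10, with a median of -0.34. None of these markers was called, and their part in the members' values was not tested.

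Atf4 differed between genotypes by 0.01 in tumor (95% interval -0.38 to 0.40) and -0.01 in TDLN (-0.40 to 0.38). In Slc38a2 the difference was 0.07 (-0.32 to 0.46) and 0.05 (-0.34 to 0.44). For Nupr1 in tumor the interval ran from -1.51 to 1.35.

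In TDLN limma called 0 of 32 members and 0 of all genes (0.0%), and no member had an unadjusted p under 0.05, beside 0.766% of all genes. There, 25 of 32 lay below 0, beside 7819 of all 16065 genes, with a median of -0.13 (all genes 0.00). Without KO TDLN replicate 3 the median was -0.01 and 18 lay below 0. Without KO TDLN replicate 1 the median was -0.23. Adjusted p was 1 for every member. The smallest p among members lower in KO belonged to Sars (-0.37), Wars (-0.45) and Slc3a2 (-0.32), and among those higher to Sesn2 (0.22), Chac1 (0.36) and Slc38a1 (0.10). Groups did not overlap for Sesn2 above and Atf5 and Pycr1 below, 3 members beside 6.35% of all genes. B-cell markers lay above 0 in KO TDLN for 7 of 7, with a median of 0.85 and none called, and their part in the members' values was not tested.

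**Figure D4:**
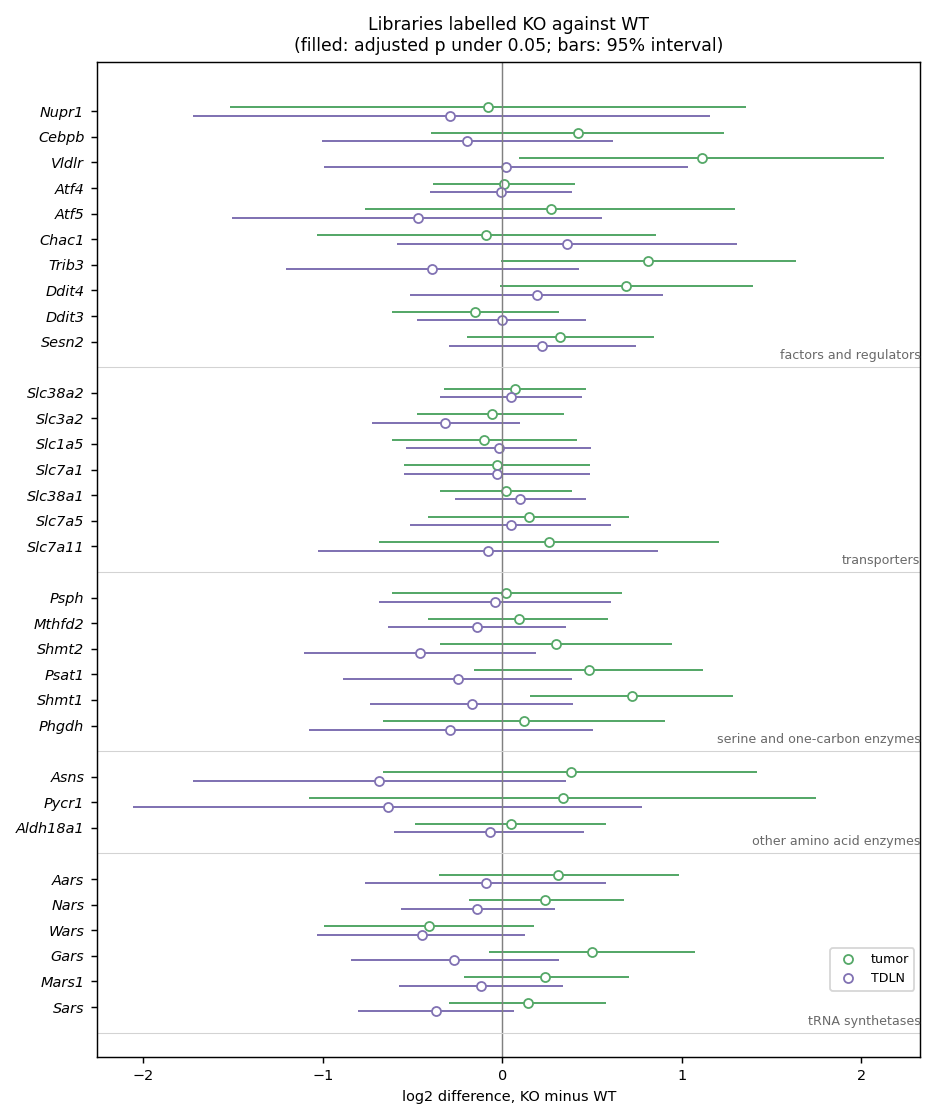
Log2 difference of libraries labelled KO minus WT for the 32 tested members, by role, in tumor (green) and TDLN (purple); points are estimates, bars 95% intervals, and open points have a limma adjusted p of 0.05 or more. No point is filled, and the medians lie at 0.19 in tumor and -0.13 in TDLN.

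The interaction, taken as KO minus WT in tumor less KO minus WT in TDLN, asks whether the tissue effect depends on the label. It was called for 0 of 32 members and 0 of all genes (0.0%), and 2 members had an unadjusted p under 0.05, beside 2.89% of all genes. Of the 32, 28 lay above 0, with a median of 0.36 (all genes 0.01), and the median was 0.21 without KO TDLN replicate 3, 0.22 without WT tumor replicate 3 and 0.16 with array weights. The smallest p above 0 belonged to Shmt1 (0.89, SE 0.36), Trib3 (1.20, SE 0.53) and Gars (0.76, SE 0.37), and below 0 to Chac1 (-0.45), Ddit3 (-0.14) and Slc38a1 (-0.08), all with adjusted p = 1. Slc38a1 changed sign with a common column total (0.02) and with array weights (0.08). The calls that one genotype made and the other did not, for Chac1, Asns, Psat1, Shmt1 and Mars1, were therefore not shown to differ between genotypes.

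Genes around the response were read from lists of related pathways, given as counts of called genes beside the background above. Of 19 regulators of eIF2alpha and partners of ATF4, the WT comparison called 4 higher and 2 lower and the KO comparison 5 and 2. For a list of 19 these counts lie near the background. Atf3, a factor downstream of ATF4, averaged 1159.5 ± 651 normalized counts in WT tumor against 0.337 ± 0.583 in its TDLN, and 1548 ± 341 in KO tumor against 0.258 ± 0.447 (SD, n = 3; limma adjusted p = 1.57e-06 and 6.83e-07). Ppp1r15a, which directs removal of the phosphate from eIF2alpha, rose with log2 3.35 and 3.62, and the related factor Jdp2 rose with 2.41 and 2.30. Eif2b1, a subunit of the exchange factor eIF2B, fell, with -0.92 and -0.90. Of 16 genes of the other arms of the unfolded protein response, WT gave 4 higher and 3 lower and KO gave 3 and 2. The chaperone Dnajb9 (2.32 and 2.41) and the sensor Atf6 (0.92 and 1.26) rose, while Pdia4 (-1.37 and -1.03) and Sdf2l1 (-2.02 and -1.71) of the endoplasmic reticulum fell.

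Of 14 cytosolic synthetases outside the members, none rose and 2 fell in WT, Vars (-1.44, adjusted p = 0.00457) and Dars (-0.68, adjusted p = 0.0211). Farsb and Yars had log2 differences of -0.50 and -0.79 without a call. In KO 4 rose, Lars (0.84), Tars (0.80), Iars (0.77) and Eprs (0.54), and 1 fell, Dars (-0.60). None of the 14 passed in the interaction. There 13 lay above 0 with a median of 0.52, beside 8133 of all 16065 genes and a median of 0.01. An unadjusted p under 0.05 was found for 3 of the 14, beside 2.89% of all genes. Of 15 tested enzymes of one-carbon and nucleotide synthesis, WT had 3 risen and 7 fallen genes and KO had 3 and 5. Tyms, which makes thymidylate, fell (-2.10 and -1.87). Gldc, of the glycine cleavage system, stood at 1.55 ± 1.38 in WT TDLN, 4.47 ± 4.38 in KO TDLN, 717 ± 712 in WT tumor and 390.5 ± 69.3 in KO tumor (SD, n = 3; limma adjusted p = 0.00013 and 0.000273).

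Of 10 tested transporters outside the members, 1 rose in WT and 3 in KO, beside 15.9% and 18.1% of all genes, and none fell. The taurine transporter Slc6a6 rose in both (1.06 and 1.09). Slc7a8, a neutral amino acid transporter, was at 0 in all 6 TDLN libraries and averaged 28.1 ± 17.3 in WT tumor and 87.4 ± 105 in KO tumor (adjusted p = 0.165 and 0.0252). Slc7a6 (0.58 and 0.45) and Slc38a7 (0.91 and 0.73) were not called. Of 14 tested genes of amino acid sensing by mTORC1, WT had 2 higher and 4 lower and KO had 2 of each. Bmt2, the methionine sensor also called SAMTOR (1.32 and 1.39), and Eif4ebp1, an inhibitor of cap-dependent translation and ATF4 target (1.61 and 1.78), rose in both. Depdc5 (-0.86) and Eif4ebp2 (-0.69) fell in WT and were not called in KO (0.00 and -0.46). In the genotype comparisons and the interaction no gene of these lists was called.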

How the data were processed

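Stranded polyA RNA sequencing covered 12 libraries, grouped by labelled tissue and genotype. The signal values, per the file headers, are normalized counts that the authors exported from Partek. Of values under 50 reads, 87.0% to 89.6% were whole multiples of a single read (within 0.01 reads), so no count model was used. The submitters' processing notes name GRCm 38 and GRCm 39 without roles. Which aligner and quantifier made the table is not given in the sources used here, and that step could split reads of overlapping or near-identical genes.

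Genes averaging 1 CPM or more were kept (16065), 24.9 normalized counts (1 CPM) were added, and log2 was taken. A single limma model (limma 3.58.1, R 4.3.3) had 4 group means, an intensity trend, 8 residual degrees of freedom and a prior of 4.47. Tests were two-sided, with Benjamini-Hochberg adjustment across the genes tested in each comparison and a call at 0.05. Intervals of 95% used the quantile 2.17. The fit was tested on simulated data. Nothing says that libraries came from separate mice, so p-values measure the spread between libraries, which may be technical. The members, lists, motif and settings were chosen with earlier results of these data known.

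By rule, the named genes were the members called between tissues, the 3 lowest p in each direction between genotypes, and up to 4 genes of each other list by p in WT. Some genes that this rule names are not reported here. Library values were set for Atf4 and the 5 highest and 5 lowest mean t. Other members with library values were added after their values were seen, as were Ccr2 and the synthetases outside the members that rose in KO. Alternatives covered scaling, pseudocount, filter, variance model, weights, groups fitted, a replicate block and leaving out each library. Plots used Python 3.11.15 and matplotlib 3.10.9.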

Additional observations from a re-analysis of the deposited data

How the results depend on the processing

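The analysis was repeated under 22 alternatives, 12 of which left out a library. Members called in the tissue comparison numbered 13 to 20 in WT (19 as reported) and 12 to 18 in KO (16 as reported), and 0 members were called between genotypes or in the interaction under any of them. Slc38a2, Atf4, Cebpb, Nupr1, Slc3a2, Slc1a5, Slc7a1 and Ddit3 kept their call in both genotypes under all 22, as did Phgdh, Shmt1 and Sars in WT. The WT median of 0.47 was 0.28 with quantile normalization, 0.06 with a mean of at least 5 CPM, which leaves 26 members, and 0.27 to 0.54 with a library left out. The KO median of 0.60 was 0.41 with a mean of at least 5 CPM. Slc1a5 between genotypes in tumor (-0.10) was 0.19 with array weights and -0.39 to 0.07 with a library left out. Slc38a1 in the interaction (-0.08) was 0.02 with a common column total, 0.08 with array weights and -0.20 to 0.05 with a library left out. The causes were not tested. With no filter on low values 6 genes, none of them a member, were called between genotypes in tumor and 1 in the interaction, and without WT tumor replicate 1 there were 10 in tumor. Libraries with the same replicate number had weakly related deviations between tissues (r = 0.011, 0.2 and -0.041 in WT and -0.019, 0.038 and -0.001 in KO), and whether a number marks a shared mouse is not given in the sources used here. With the number as a replicate block (consensus correlation 0.047) 19 members were called in WT and 16 in KO, the same genes. The interaction could not be fitted with only the compared groups. Depth limits Trib3, Chac1, Vldlr and Cth, which held 0 to 3 reads over 3 TDLN libraries in at least 1 genotype.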
